A study of Mus musculus with 6 samples.

Results

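The collagen gene family was followed in healing bone of mice without Cyp24a1, whose product inactivates the vitamin D hormone, and of their heterozygous littermates. Members were taken by name alone: every probe set whose single gene symbol reads Col, a number, the letter a and a number, with each gene represented by the probe set of highest mean over the arrays. This gave 42 collagen genes of the 18193 genes represented on the array, read by 82 probe sets of the 45037 tested. Both groups were 12 weeks old, of a mixed C57BL6J x 129SV background, and had a tibial osteotomy stabilised with an intramedullary rod. The callus, the repair tissue that forms at the cut, was taken at day 14 and its RNA was hybridised to Affymetrix mouse expression arrays. The null group (Cyp24a1 (-/-)) had 3 arrays and the heterozygous group (Cyp24a1 (+/-)) had 3. The heterozygous mice carry 1 disrupted Cyp24a1 copy, so the comparison is between no copy and 1 copy and has no wild-type arm. The labels do not tie each array to its own mouse, so the p-values speak only of the spread from array to array, part of which may be technical.

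Collagens are built from chains that wind into a triple helix, and the classes differ in what the helices assemble into. Fibrillar collagens form the banded fibrils of bone, skin, tendon and cartilage, and fibril-associated collagens with interrupted helices (FACIT) sit on the fibril surface. Other classes build basement membranes, beaded microfibrils, hexagonal short-chain networks or anchoring fibrils, or span the cell membrane. In a healing fracture, cells of the soft callus deposit the cartilage collagens II, IX and XI, hypertrophic chondrocytes add collagen X, and osteoblasts replace that tissue with a matrix of collagen I.

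The arrays differed in tissue makeup before any genotype comparison. Genes of neutrophils and red cell precursors were low on null array 1 and heterozygous array 3, with a marrow score (the mean log2 deviation of 10 neutrophil and 7 red cell precursor genes) of -3.04 and -3.13 there, against 1.20 to 1.88 on the other 4 arrays. Null array 1 and heterozygous array 1 carried high Xist. The callus label was checked against non-collagen markers. The osteoblast markers Ibsp, Alpl and Sp7 and the cartilage proteoglycan Acan were above 3.52 on every array. That level, called silent here, is the highest read by probe sets of Xist, or of the Y chromosome, where the transcript was lacking. The cartilage genes Matn1, Hapln1 and Epyc and the chondrocyte signal Ihh lay under 3.52 on every array. The other cartilage genes read, Comp, Chad, Sox6, Sox9, Sox5, Cytl1, Matn3, Snorc and Ucma, lay above it on every array, the last narrowly. Cnmd lay above it on some arrays only. Skeletal muscle transcripts were also abundant, with Acta1 between 14.40 and 14.49.

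No collagen gene passed limma's moderated test between null and heterozygous callus. The adjusted p-values of the 42 genes lay between 0.999 and 0.9997, and over all genes 0% were called at an adjusted p of 0.05. An unadjusted p under 0.05 was reached by 3 of the 42 collagen genes (7.14%), against 4.49% of all genes. One was higher in null callus (2.38% of members, 2.06% of all genes) and the other two were lower (4.76% of members, 2.43% of all genes). The gene with the higher level was Col12a1, and those with lower levels were Col19a1 and Col13a1. The null and heterozygous values did not overlap for 1 collagen gene, on the lower side (2.38% of members), whereas 4.14% of all genes were apart on the higher side and 5.99% on the lower side. These shares rest on very few members and do not set the family apart. The count at an unadjusted p under 0.05 was 0 to 4 when single arrays were left out, and 0 without heterozygous array 1. Differences below are null minus heterozygous on the log2 scale, with the standard error from the fit.

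By direction alone, 27 collagen genes had a higher mean in null callus and 15 a lower mean, where 49.7% of all genes were higher. The median difference of the family was 0.16, beside -0.0017 over all genes, and it lay between -0.03 and 0.37 when single arrays were left out. Its smallest value came without heterozygous array 2 (-0.027) and it was -0.022 without null array 1. The direction differed by class: all 6 basement membrane genes had the higher mean in null callus, with a median of 0.33, while 5 of 9 FACIT genes were lower, with a median of -0.18. The 11 fibrillar genes had a median of 0.10 with 8 higher, the 5 beaded filament genes 0.48 with 3 higher, the 3 short-chain genes 0.20 with 2 higher, and the 4 transmembrane genes -0.19 with 1 higher. Both multiplexins were higher in null callus. Of the basement membrane genes, Col4a6 lay under the silent level on every array and Col4a3 and Col4a4 on some, so their signs say little. The same holds for Col6a5 (every array) and Col6a4 (some) of the beaded filament genes, and for Col9a2 and Col9a3 (some) of the FACIT genes. The FACIT median of -0.18 is the difference of Col9a2 itself. Without single arrays the FACIT median ran from -0.29 to 0.26, turning positive without null array 2, and that of the basement membrane genes from 0.15 to 0.56. That of the beaded filament genes ran from 0.18, without null array 1, to 0.83. The medians of the fibrillar (-0.03 to 0.23), short-chain (-0.20 to 0.54) and transmembrane genes (-0.58 to 0.39) also took both signs.

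**Figure D1:**
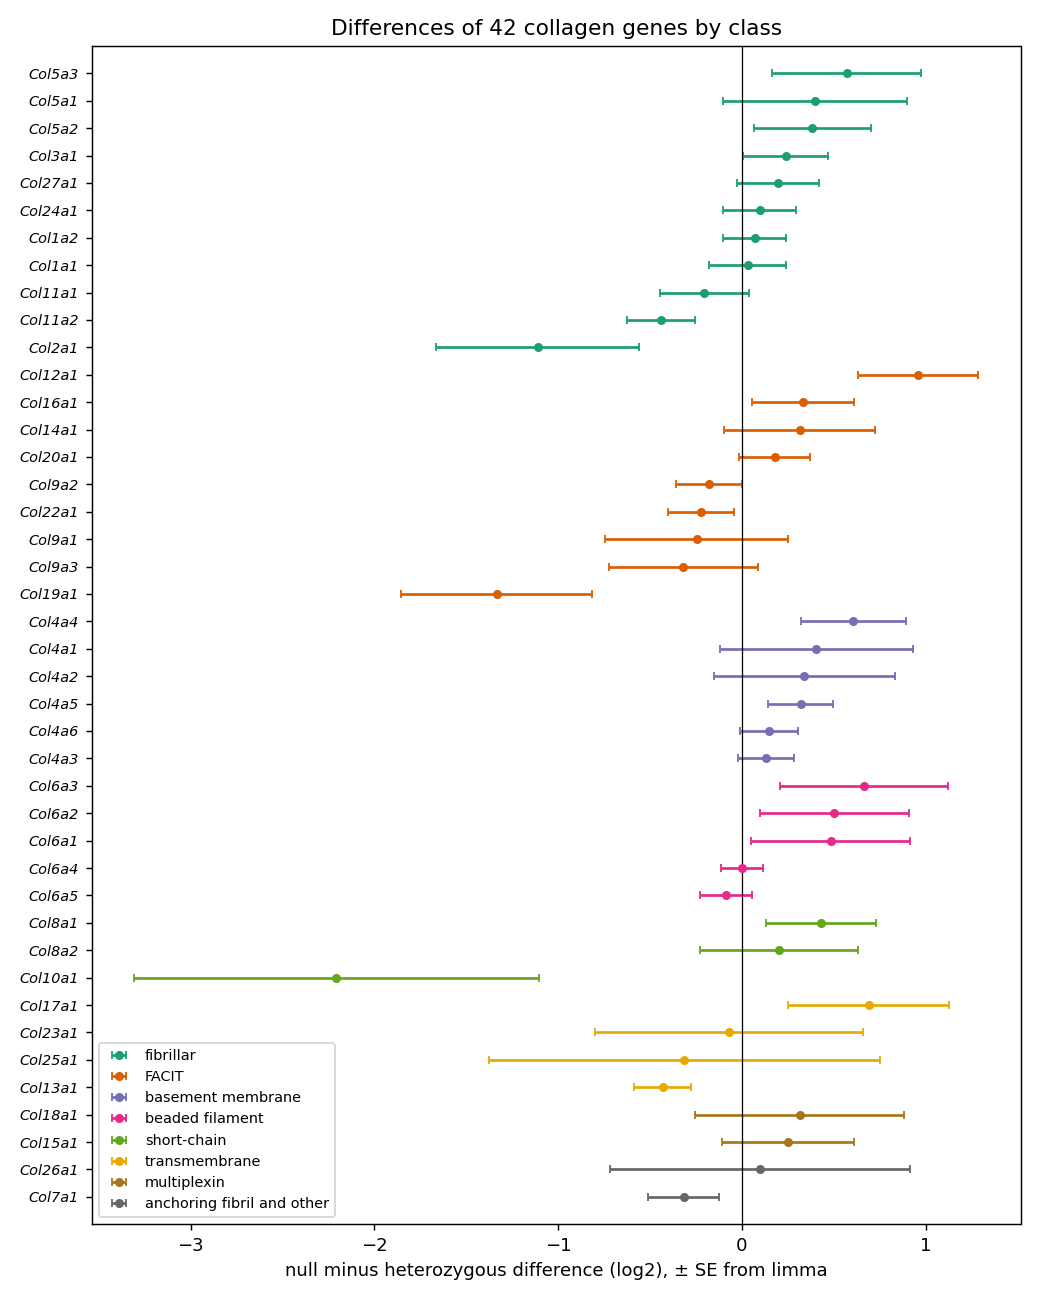
Null minus heterozygous difference of each of 42 collagen genes (x axis, log2; points are limma estimates, bars ± SE), grouped and coloured by collagen class down the page. Col10a1 has the lowest estimate, at -2.21, and Col12a1 the highest, at 0.96.

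Upstream sequences are shown for some of the genes described below: Col10a1 and Col19a1, which had the most negative differences, and the 3 main collagen VI chains, whose values ran in parallel over the arrays. Each is the 250 bases before the gene's most upstream RefSeq start, 5′ to 3′ on the gene's strand, in build GRCm38.p6. Capitals mark any match, on either strand, to the core promoter element TATAAA, to the element CCAAT that binds NF-Y, to the GC box GGGCGG, to the RUNX core TGTGGT or to the nuclear receptor site AGGTCA. Col10a1 is at chr10:34389731-34389980 on the plus strand, Col19a1 at chr1:24587438-24587687, Col6a1 at chr10:76726045-76726294, Col6a2 at chr10:76623631-76623880 and Col6a3 at chr1:90843972-90844221, with the last 4 genes on the minus strand.
Col10a1: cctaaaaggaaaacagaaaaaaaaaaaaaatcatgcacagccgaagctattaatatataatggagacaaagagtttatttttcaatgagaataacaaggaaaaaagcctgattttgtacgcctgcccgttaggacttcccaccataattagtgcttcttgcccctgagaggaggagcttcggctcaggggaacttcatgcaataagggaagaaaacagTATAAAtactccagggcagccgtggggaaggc
Col19a1: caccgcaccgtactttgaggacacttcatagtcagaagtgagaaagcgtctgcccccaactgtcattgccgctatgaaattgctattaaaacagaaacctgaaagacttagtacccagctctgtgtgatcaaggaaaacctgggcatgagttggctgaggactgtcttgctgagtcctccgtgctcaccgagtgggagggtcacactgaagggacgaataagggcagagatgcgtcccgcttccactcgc
Col6a1: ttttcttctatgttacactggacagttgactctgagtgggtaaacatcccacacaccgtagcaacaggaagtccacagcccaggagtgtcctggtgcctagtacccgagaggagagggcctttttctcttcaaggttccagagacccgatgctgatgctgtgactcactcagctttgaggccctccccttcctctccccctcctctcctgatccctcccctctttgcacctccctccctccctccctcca
Col6a2: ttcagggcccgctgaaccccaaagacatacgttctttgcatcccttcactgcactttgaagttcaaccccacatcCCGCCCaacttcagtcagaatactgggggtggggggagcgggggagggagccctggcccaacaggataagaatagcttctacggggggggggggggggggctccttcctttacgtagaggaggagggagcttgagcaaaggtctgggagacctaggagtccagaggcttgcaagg
Col6a3: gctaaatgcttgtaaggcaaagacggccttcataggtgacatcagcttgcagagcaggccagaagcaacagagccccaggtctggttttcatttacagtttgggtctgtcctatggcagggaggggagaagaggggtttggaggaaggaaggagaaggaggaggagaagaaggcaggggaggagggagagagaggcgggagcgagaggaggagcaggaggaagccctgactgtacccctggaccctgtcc

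Col10a1 held a TATAAA match whose last base lay 27 bases before the start, and Col6a2 held 1 GC box match. The Col19a1, Col6a1 and Col6a3 windows held none of the 5 motifs. RefSeq windows were matched for 33 of the 42 collagen genes. Col12a1 and Col2a1 had no matched window, so no sequence could be shown for them. Among the 33 matched windows, GGGCGG was present in 20 (60.6%), against 33.0% of 27025 gene windows of the same length. TATAAA was present in 5 (15.2%, against 13%), CCAAT in 12 (36.4%, against 34.5%), TGTGGT in 2 (6.06%, against 14.2%) and AGGTCA in 8 (24.2%, against 13.8%). The motifs do not contain one another, and a match describes letters only.

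By the probe set of highest mean, all 7 genes of the cartilage collagens II, IX, X and XI had a lower mean in null callus. Scatter among the null arrays was wide for several of them. Col10a1, which encodes the collagen of hypertrophic cartilage, read 3.11, 4.44 and 7.71 on null arrays 1 to 3, against 7.79, 6.74 and 7.36 on heterozygous arrays 1 to 3. Null array 1 lay below the level of silent transcripts and null array 2 was low, while null array 3 lay among the heterozygous arrays, so that the groups overlapped. The means were 5.09 ± 2.37 in null and 7.29 ± 0.53 in heterozygous callus (SD, n = 3 each), a difference of -2.21 (SE 1.10). It was -1.22 without null array 1 and -3.52 without null array 3. Since null array 1 was under the silent level, no fold is given, and every difference that includes this array rests on a reading not told apart from background. The unadjusted p was 0.0884 by limma.

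Col2a1, the main fibril-forming collagen of cartilage, read 8.16, 7.04 and 9.28 in null callus and 9.76, 8.92 and 9.13 in heterozygous callus. Null array 2 was lowest and null array 3 again lay inside the heterozygous range. Its difference was -1.11 (SE 0.55), or -0.55 without null array 2 and -1.67 without null array 3. Col11a2, which encodes a minor chain of the cartilage fibril, read 6.97, 7.08 and 7.16 in null callus and 7.51, 7.16 and 7.85 in heterozygous callus. The null values lay close together, and heterozygous array 2 met them. Its difference was -0.44 (SE 0.19), the lowest unadjusted p of the fibrillar class (limma, 0.0516). Col11a1, the partner chain, read 9.52, 8.82 and 9.35 in null callus and 9.36, 9.14 and 9.81 in heterozygous callus, and the groups overlapped almost fully (difference -0.20, SE 0.24).

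The 3 collagen IX genes encode the FACIT chains that coat the cartilage fibril. Col9a1 read 6.05, 4.89 and 7.0 in null callus, against 6.5, 6.04 and 6.14 in heterozygous callus. The other Col9a1 probe set had the opposite sign, with a difference of 0.02 (SE 0.22). Col9a3 read 4.67, 3.50 and 5.05 in null callus, against 4.94, 4.89 and 4.35 in heterozygous callus. Both were lowest on null array 2 and highest on null array 3, as Col2a1 was lowest on null array 2, and without null array 2 their differences of -0.25 and -0.32 turned to 0.30 and 0.13. Col9a2 read 3.56, 3.05 and 3.41 in null callus and 3.72, 3.54 and 3.29 in heterozygous callus. These values straddle the level of silent transcripts, so no fold is given.

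Non-collagen genes of the same tissues are set beside these values. Of 14 cartilage genes, 6 were higher in null callus and 1 reached an unadjusted p under 0.05, with a median difference of -0.08. That gene, Snorc, a chondrocyte membrane proteoglycan, read 3.67, 3.87 and 5.38 in null callus and 5.40, 5.67 and 5.38 in heterozygous callus. Its low arrays were null arrays 1 and 2, the same arrays on which Col10a1 was low, while null array 3 all but met heterozygous array 3. Its difference was -1.18 (SE 0.44). Acan, among the 6 higher in null callus, read 7.39, 5.93 and 6.65 in null callus and 6.22, 6.14 and 5.71 in heterozygous callus. The Acan difference was 0.63 (SE 0.36), and Acan was highest on null array 1, where Col10a1 was lowest. Of 7 genes of hypertrophic cartilage, 2 were higher in null callus and 2 reached an unadjusted p under 0.05, both lower, where 2.43% of all genes were lower at that p. These are Ibsp and Alpl, which are also the 2 such genes of the osteoblast list. Ibsp, bone sialoprotein, averaged 9.63 ± 0.19 in null and 10.19 ± 0.22 in heterozygous callus (SD, n = 3 each), and Alpl, the alkaline phosphatase of mineralising cells, averaged 7.93 ± 0.07 in null and 8.26 ± 0.09 in heterozygous callus. The array means of the cartilage list, relative to each gene's mean, were -0.08, -0.19 and 0.12 in null callus and 0.16, 0.08 and -0.09 in heterozygous callus. In bulk callus, fewer cells of a type and less RNA per cell cannot be told apart.

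**Figure D2:**
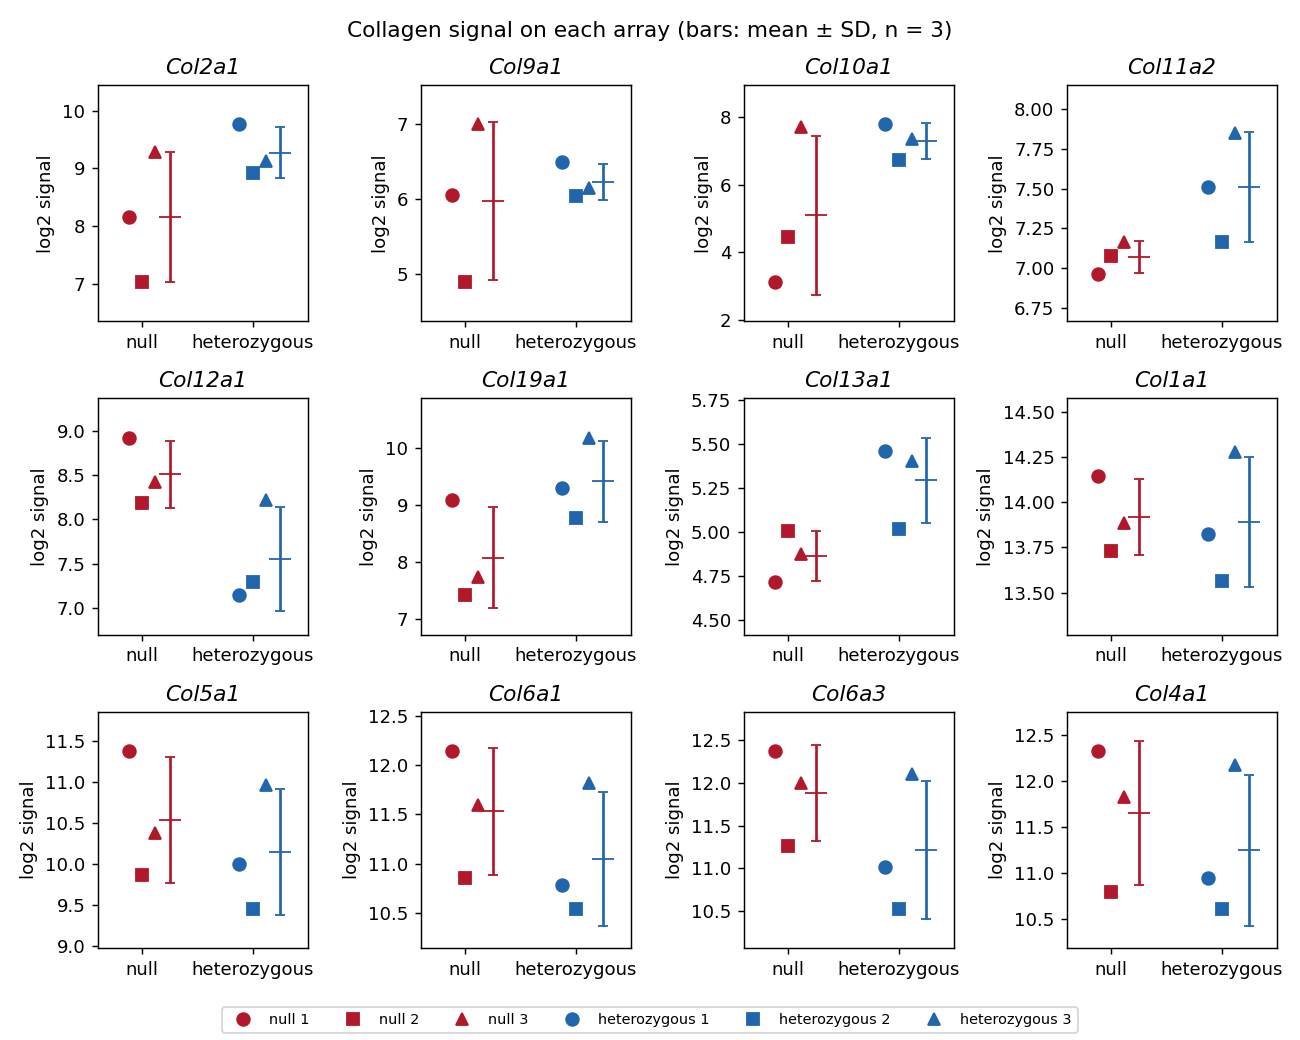
Log2 signal of 12 collagen genes on each array, null (red) left of heterozygous (blue), with a marker shape per array number and bars for the mean ± SD of 3 arrays. Each panel has its own y range, which does not start at 0. Col10a1 is low on null arrays 1 and 2 only, and Col1a1 differs little between groups.

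Among FACIT genes outside cartilage, Col12a1 had a higher and Col19a1 a lower mean in null callus. Col12a1 encodes a FACIT of tendon, ligament and bone-forming surfaces that bridges collagen I fibrils. It read 8.92, 8.18 and 8.42 in null callus and 7.14, 7.29 and 8.22 in heterozygous callus. The groups missed separation narrowly, because heterozygous array 3 lay just above null array 2. Means were 8.51 ± 0.38 and 7.55 ± 0.59 in null and heterozygous callus (SD, n = 3 each), a difference of 0.96 (SE 0.33) or 1.94-fold higher in null callus, with a limma unadjusted p of 0.0243 and an adjusted p of 0.999. A second probe set differed by 0.55 (SE 0.35), and the other two, under the silent level on every array, had differences of -0.01 and 0.04. Leaving out single arrays gave 0.75 to 1.29.

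Col19a1, a minor FACIT found at basement membrane zones and made by muscle and nerve cells, read 9.08, 7.42 and 7.74 in null callus. It read 9.29, 8.78 and 10.18 in heterozygous callus. Null array 1 lay inside the heterozygous range and the other null arrays lay below it. The difference was -1.34 (SE 0.52), or 2.52-fold higher in heterozygous callus, with a limma unadjusted p of 0.0395 and an adjusted p of 0.999. A second probe set gave -1.41 (SE 0.44) and the third -0.28 (SE 0.22). Values between -1.84 and -0.95 were obtained when single arrays were left out. Skeletal muscle genes, 0 of 10 higher in null callus, had list means of -0.43, 0.17 and 0.13 in null callus and 0.14, 0.17 and -0.18 in heterozygous callus, lowest on the 2 marrow-poor arrays where Col19a1 was highest within each group. Their part in the Col19a1 values was not tested.

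Among the remaining FACIT genes, Col14a1, another fibril-surface collagen of soft connective tissue, read 10.06, 8.83 and 9.53 in null callus and 9.26, 8.48 and 9.74 in heterozygous callus. Col22a1, which marks the myotendinous junction, read 6.80, 7.37 and 7.31 in null callus and 7.39, 7.52 and 7.23 in heterozygous callus. Both overlapped between groups (differences 0.31, SE 0.41, and -0.22, SE 0.18). Col16a1 and Col20a1 differed by 0.33 and 0.18.

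Collagen I, the bulk of bone matrix, differed little between groups. Col1a1 read 14.14, 13.73 and 13.89 in null callus and 13.82, 13.57 and 14.28 in heterozygous callus. Col1a2 read 13.84, 13.48 and 13.62 in null callus and 13.53, 13.33 and 13.88 in heterozygous callus. Differences were 0.03 (SE 0.21) for Col1a1 and 0.07 (SE 0.17) for Col1a2, and both turned negative without null array 1 and without heterozygous array 2. Col1a1 was also negative without heterozygous array 1 (-0.00187), and its second probe set gave -0.11 (SE 0.21). Beside it, 2 of 9 measured osteoblast genes other than collagens had the higher mean in null callus (median -0.29), and 2, again Ibsp and Alpl, were lower at an unadjusted p under 0.05.

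Collagen III, the first fibril former of repair tissue, showed how far probe sets of a gene can differ. The probe set of highest mean read 13.82, 13.29 and 13.75 in null callus and 13.32, 13.05 and 13.79 in heterozygous callus, a difference of 0.24 (SE 0.23). The other Col3a1 probe set gave 0.88 (SE 0.33) with a limma unadjusted p of 0.0352 and overlap between groups. Of the 27 collagen genes with several probe sets, 7 had one of opposite direction. Collagen V, which limits fibril width, read 11.38, 9.86 and 10.38 for Col5a1 in null callus and 10.004, 9.45 and 10.97 in heterozygous callus. Col5a2 read 12.40, 11.56 and 12.18 in null callus and 11.69, 11.14 and 12.16 in heterozygous callus. Both were highest on null array 1 and lowest on heterozygous array 2, and the differences were 0.40 (SE 0.50) and 0.38 (SE 0.32). Col5a3 differed by 0.57 (SE 0.40), and the other fibrillar genes Col24a1 and Col27a1 by 0.10 and 0.20.

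Collagen VI, the beaded microfibril that surrounds muscle, cartilage and fibroblast cells, had its 3 main chains vary together from array to array. Col6a1 read 12.14, 10.86 and 11.59 in null callus and 10.79, 10.55 and 11.82 in heterozygous callus. Col6a2 read 12.50, 11.21 and 11.94 in null callus and 11.20, 10.91 and 12.03 in heterozygous callus. Col6a3 read 12.38, 11.26 and 12.00 in null callus and 11.02, 10.53 and 12.11 in heterozygous callus. All 3 were highest on null array 1 and lowest on heterozygous array 2, and heterozygous array 3 lay above null arrays 2 and 3. The differences were 0.48 (SE 0.43), 0.50 (SE 0.40) and 0.66 (SE 0.46), and none had an unadjusted p under 0.05 in the limma fit without a covariate. Col6a4 and Col6a5, chains with restricted expression, lay near or under the silent level and differed by -0.0008 and -0.09.

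Collagen IV, the network of basement membranes around vessels and muscle fibres, gave a like pattern for its widespread chains. Col4a1 read 12.33, 10.79 and 11.83 in null callus and 10.95, 10.61 and 12.18 in heterozygous callus. Col4a2 read 11.49, 10.36 and 11.13 in null callus and 10.35, 9.95 and 11.66 in heterozygous callus. These 2 genes lie next to each other, and the differences were 0.40 (SE 0.52) and 0.34 (SE 0.49). Col4a4, a chain best known from kidney and inner ear, read 3.87, 4.15 and 4.94 in null callus and 3.48, 3.87 and 3.79 in heterozygous callus. The groups met at null array 1 and heterozygous array 2, and the difference was 0.61 (SE 0.28). Col4a5 differed by 0.32, and Col4a3 and Col4a6, at or near the silent level, by 0.13 and 0.15. Endothelial genes, 10 of 10 higher in null callus with a median difference of 0.26 and 0 at an unadjusted p under 0.05, lay in the same direction, and their part in the collagen IV values was not tested.

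Short-chain collagen VIII, a vessel wall and endothelial matrix protein, read 9.95, 9.01 and 9.08 for Col8a1 in null callus and 9.06, 8.51 and 9.18 in heterozygous callus (difference 0.43, SE 0.30). Col8a2 differed by 0.20. The multiplexins carry glycosaminoglycan chains at basement membranes. Col15a1 read 8.39, 7.80 and 8.53 in null callus and 7.86, 7.40 and 8.71 in heterozygous callus. Col18a1, the source of endostatin, read 9.29, 7.48 and 8.31 in null callus and 7.78, 7.36 and 9.001 in heterozygous callus. Both overlapped between groups, with differences of 0.25 (SE 0.36) and 0.31 (SE 0.57).

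Transmembrane collagens spanned a wide range of behaviour. Col13a1, a collagen of cell adhesion sites and the neuromuscular junction, read 4.71, 5.003 and 4.87 in null callus and 5.46, 5.02 and 5.40 in heterozygous callus. It was the collagen gene without overlap, although null array 2 and heterozygous array 2 nearly touched. The difference was -0.43 (SE 0.16), or 1.35-fold higher in heterozygous callus, with a limma unadjusted p of 0.0299 and an adjusted p of 0.999. Col25a1 and Col23a1 varied mostly between arrays, with Col25a1 running from 3.91 to 7.44 in null callus and from 4.23 to 6.73 in heterozygous callus. Col17a1, a hemidesmosome protein of basal skin cells, read 5.25, 5.47 and 4.20 in null callus and 3.61, 4.92 and 4.33 in heterozygous callus (difference 0.69, SE 0.44). Skin genes were 10 of 10 higher in null callus, with a median of 1.46. Of them, 1 reached an unadjusted p under 0.05, where 2.06% of all genes were higher at that p. The skin list means were 1.37, 0.74 and -0.04 in null callus and -1.85, 0.61 and -0.82 in heterozygous callus. Heterozygous array 1 was lowest for both the list and Col17a1, and their part in Col17a1 was not tested. Col7a1, the anchoring fibril of skin, read 6.83, 6.44 and 7.17 in null callus and 7.23, 7.14 and 7.01 in heterozygous callus (difference -0.32, SE 0.19), against the direction of the skin list. Col26a1, a secreted collagen, differed by 0.10 (SE 0.81).

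**Figure D3:**
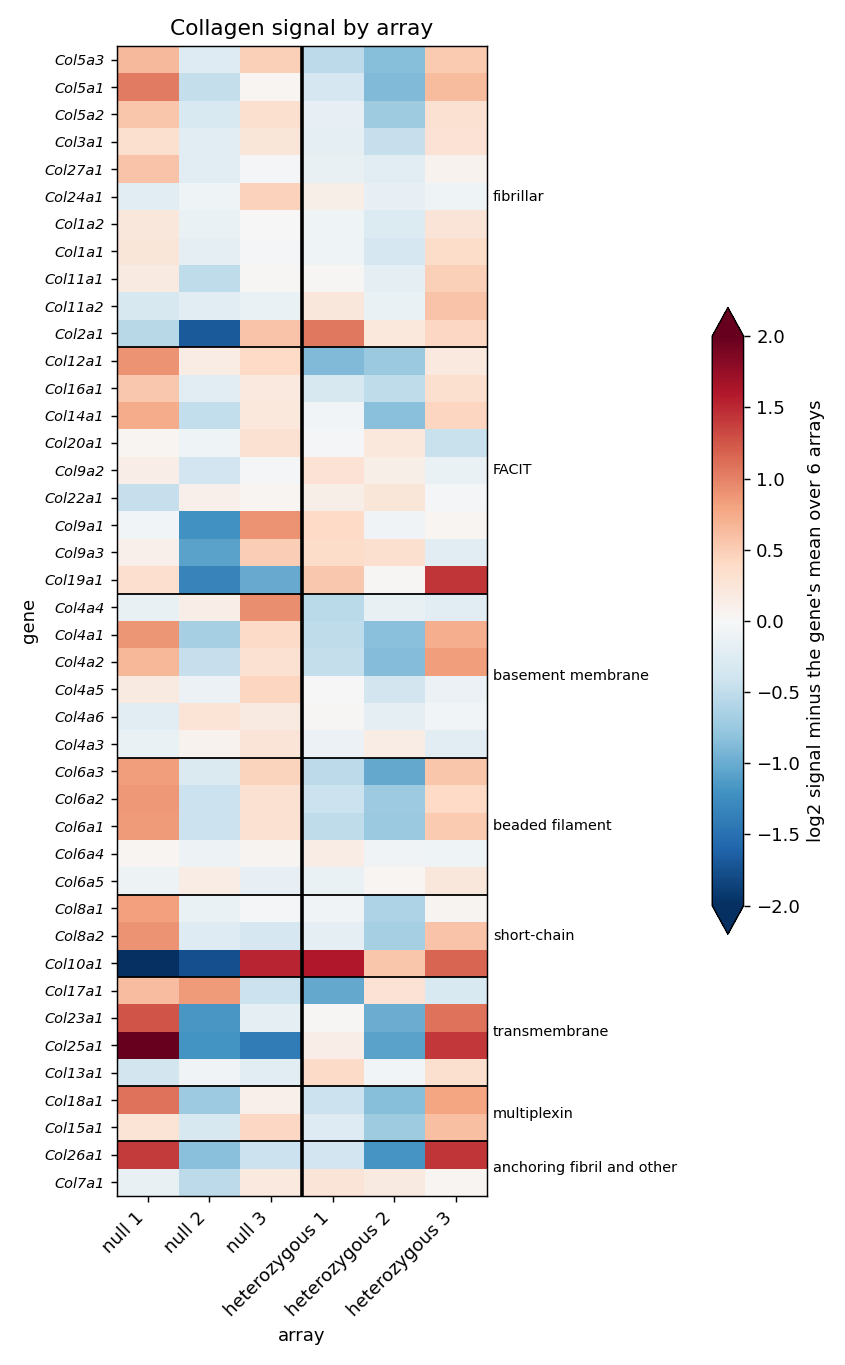
Log2 signal of 42 collagen genes minus each gene's mean over 6 arrays (colour, red above and blue below the mean, limited at 2), with null arrays left of heterozygous arrays and genes grouped by class. Col4a1, Col4a2, Col6a1, Col6a2 and Col6a3 are red on null arrays 1 and 3 and heterozygous array 3. They are blue on null array 2 and heterozygous arrays 1 and 2.

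One pattern among the members ran across genotype. In 20 of the 42 collagen genes (47.6%), the 2 highest arrays were null array 1 and heterozygous array 3, the arrays low in marrow genes, against 16.4% of all genes. These included Col1a1, Col1a2, Col3a1, Col5a1, Col6a1, Col6a2, Col6a3, Col4a1, Col4a2, Col14a1, Col18a1 and Col25a1. The 2 lowest arrays were this pair for Col22a1 and Col4a3. Null array 1 was the highest array for 17 collagen genes, and heterozygous array 2 the lowest for 19. Relative to each gene's mean, the family averaged 0.32, -0.40 and 0.14 on the null arrays and -0.06, -0.36 and 0.36 on the heterozygous arrays. Each group held 1 marrow-poor array, and the part of marrow content in the collagen values was not tested.

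With the marrow score as a covariate, the standard errors of several genes were smaller. An unadjusted p under 0.05 was then reached by 9 of 42 collagen genes (21.4%), 6 higher and 3 lower in null callus, while 10% of all genes reached it. None passed limma's adjusted test (lowest adjusted p 0.463, for Col19a1). Over all probe sets, the lowest limma adjusted p of this fit was 0.00887, so outside the family the 0.05 bar was met. Col12a1 gave 0.96 (SE 0.12) and Col19a1 -1.33 (SE 0.17). The collagen VI chains gave 0.49 (SE 0.17) for Col6a1, 0.51 (SE 0.18) for Col6a2 and 0.67 (SE 0.22) for Col6a3. Col5a3 and Col16a1 were the other two on the higher side, and Col13a1 and Col11a2 on the lower side. Without both marrow-poor arrays, which leaves fewer arrays in each group, 5 of 42 collagen genes (11.9%) had an unadjusted p under 0.05 by limma. The share of all genes was 9.52%. Of the 9 genes above, 4 were among them: Col12a1 (1.09), Col19a1 (-1.45), Col6a3 (0.86) and Col5a3 (0.80). The remaining 5 of the 9 were not, with differences of 0.56 for Col6a1, 0.52 for Col6a2, 0.39 for Col16a1, -0.30 for Col13a1 and -0.22 for Col11a2. The 9 genes were picked by a fit that includes these same arrays, so the smaller fit is no independent check of them.

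**Figure D4:**
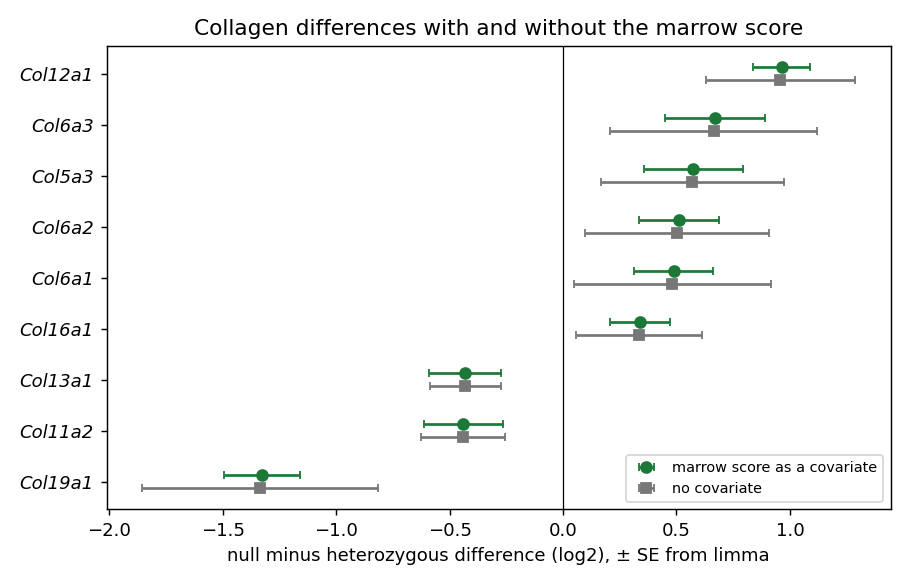
Null minus heterozygous difference (x axis, log2, ± SE from limma) of the 9 collagen genes with an unadjusted p under 0.05 when the marrow score is a covariate (green circles), beside the fit with no covariate (grey squares). For Col12a1 the SE is 0.12 with the covariate and 0.33 without it, at nearly the same difference.

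Genes that serve collagen were read from lists of the pathway. Of 31 genes of collagen maturation, which hydroxylate, fold, trim and cross-link the chains, 27 were measured, 23 of them higher in null callus with a median of 0.17, and 0 reached an unadjusted p under 0.05 in limma's fit. Their array means were 0.40, -0.21 and 0.07 in null callus and -0.10, -0.30 and 0.14 in heterozygous callus, highest on null array 1 and lowest on heterozygous array 2. Adamts3, which trims the amino end of procollagen, differed by 0.42 (SE 0.18). It read 3.67, 3.65 and 4.20 in null callus and 3.58, 3.41 and 3.28 in heterozygous callus. Heterozygous arrays 2 and 3 were thus under the silent level. Of 9 measured collagen receptors, 5 were higher in null callus, and 1 was lower at an unadjusted p under 0.05, as 2.43% of all genes were. It was Itga2, an integrin chain that binds collagen I, at -0.31 (SE 0.12). Itga2 read 3.70, 3.60 and 3.48 in null callus and 4.08, 3.80 and 3.82 in heterozygous callus. These values lie near the silent level, and null array 3 was under it. Of 7 genes of collagen breakdown, 6 were higher with a median of 0.27, and 0 reached that bar. Their array means were -0.56, 0.38 and 0.42 in null callus and 0.03, -0.004 and -0.26 in heterozygous callus. These were lowest on null array 1 and heterozygous array 3, the marrow-poor arrays. Tendon and fibroblast genes other than collagens gave 11 of 12 higher in null callus (median 0.42), and macrophage genes 10 of 10 (median 0.52), with 0 and 3 at an unadjusted p under 0.05. At that p, 2.06% of all genes were higher in null callus. The tendon and fibroblast gene with the lower mean in null callus was Scx, at -0.64 (SE 0.33). The macrophage list means were 0.93, -0.33 and 0.31 in null callus and -0.26, -0.77 and 0.13 in heterozygous callus. Like those of the maturation list, they were highest on null array 1 and lowest on heterozygous array 2.

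On the chromosomes, 7 pairs of measured collagen genes are direct neighbours among protein-coding genes of GRCm38.p6, and the partners are compared here by their differences. Col6a2 and Col6a1 gave 0.50 and 0.48, and Col3a1 and Col5a2 gave 0.24 and 0.38. Col4a4 and Col4a3 gave 0.61 and 0.13, and Col4a6 and Col4a5 gave 0.15 and 0.32. Col9a1 and Col19a1, which also adjoin, gave -0.25 and -1.34. Partners had the same sign in all 7 pairs, but in 3 of them (Col6a5 with Col6a4, Col4a4 with Col4a3, Col4a6 with Col4a5) at least 1 partner lay at or under the silent level on some or all arrays.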

How the data were processed

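The deposited table holds 1 log2 value per probe set and array, as the authors made it. The scale was taken from the values (1.65 to 14.49 over all probe sets), while software, background correction and normalisation were not given in the sources used here. Of 45101 probe sets, 64 controls were left out. Gene symbols came from the platform annotation: 34945 probe sets have 1 symbol, 932 several and 9160 none, and only the first kind was named. Each of the 45037 probe sets was fitted by lmFit and eBayes (limma 3.58.1, under R 4.3.3; two-sided, null minus heterozygous) with Benjamini-Hochberg adjustment over all of them. The residual degrees of freedom were 4 and the prior added 2.50. For 3 against 3 arrays, the smallest exact permutation p is 0.1.

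Collagen classes and marker lists follow textbook knowledge. The members, lists and tests were chosen with earlier results of these data known. Arrays were named 1 to 3 within a group in deposit order, which pairs nothing. Values on every array are printed for the main bone, cartilage, tendon, basement membrane and microfibril collagens, for every member with an unadjusted p under 0.05 and for the lowest p of each class; from the marker lists, the members of lowest p could be named. The levels of Acta1, Acan, Sp7, Matn1, Hapln1, Epyc and Ihh were picked after their values were seen, to check the tissue. The rest of the cartilage list was set against the silent level beside them. Scx was named as the exception in direction of its list. Col6a6, Col21a1 and Col28a1 are not analysed here. Of the 82 probe sets, 5 carry a suffix (_s_at or _x_at) that marks possible cross-hybridisation, and 2 of these represent a gene (Col20a1 and Col22a1). Alternatives were other normalisations, variance models, a filter on level, other probe set choices, covariates for marrow genes and for Xist, and leaving out arrays.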

Additional observations from a re-analysis of the deposited data

How the results depend on the processing

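The number of arrays limits the precision. Across 19 alternatives 0 collagen genes passed the adjusted test, with 3 at an unadjusted p under 0.05 in limma's fit with all arrays and no covariate. Adding the marrow score made that count 9; it was 5 with array weights (11.9%, against 12.1% of all genes), 5 without both marrow-poor arrays (11.9%, against 9.52% of all genes), 0 with the plain test per probe set and 0 to 4 when single arrays were left out (0 without heterozygous array 1). The FACIT median lay between -0.29 and 0.26 without single arrays, the upper value without null array 2; the cause was not tested. Signs held for 25 genes, Col10a1, Col2a1, Col12a1, Col13a1 and Col19a1 among them, and turned for 17 in at least 1 alternative.

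With all arrays kept, 3 genes turned sign by probe set or scaling: Col1a1 to -0.0417 (mean of its probe sets) and -0.11 (most variable probe set), Col26a1 to -0.0169 (mean of probe sets), Col6a4 to 0.022 (quantile) and 0.020 (cyclic loess). Col6a5 was 0.034 without both marrow-poor arrays. Leaving out single arrays gave -0.58 to 0.83 for Col26a1, -0.13 to 0.23 for Col1a1, -0.054 to 0.22 for Col1a2, -0.041 to 0.36 for Col27a1, -0.023 to 0.81 for Col5a1, -0.15 to 0.79 for Col18a1, -0.20 to 0.54 for Col8a2, -0.044 to 0.076 for Col6a4, -0.76 to 0.30 for Col9a1, -0.64 to 0.13 for Col9a3, -0.71 to 0.49 for Col23a1, -1.46 to 0.32 for Col25a1, -0.11 to 0.23 for Col24a1, -0.012 to 0.84 for Col4a2, -0.025 to 0.64 for Col14a1, -0.046 to 0.61 for Col15a1 and -0.18 to 0.0019 for Col6a5. No paired analysis was possible because the labels give no replicate numbers.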
